A study of Mus musculus with 11 samples.

Results

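Infiltrating monocyte-derived phagocytes were examined among single nuclei of the mouse brain and cervical cord in experimental autoimmune encephalomyelitis (EAE), in which mice immunized against a myelin antigen develop a disease that resembles multiple sclerosis. They were chosen by the genes they expressed. A barcode was a member when it held unique molecular identifiers (UMIs) of 2 or more of the 5 genes Ccr2, Gpr141, Klra2, Ly6c2 and Ms4a4c. It could hold no UMI of P2ry12, Tmem119 or Siglech, which mark microglia, of Csf3r, which marks neutrophils, or of Cd3e, which marks T cells. The cerebellar granule cell genes Gabra6, Fat2, Chn2 and Etv1 had to stay under 0.2% of its UMIs, and mitochondrial genes under 5%. These limits left 245 of 188089 barcodes. The levels of these genes in the members follow from the choice and are given as a description only.

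Monocytes leave the bone marrow in response to ligands of Ccr2, circulate in the blood and enter inflamed tissue, where they mature into macrophages or antigen-presenting cells. In EAE they enter the central nervous system with T cells and take up myelin debris, present antigen on MHC class II and make reactive oxygen and nitrogen species. Microglia, the resident macrophages of the brain, share many phagocyte genes with them but arise from the yolk sac and keep a programme of their own that includes P2ry12 and Tmem119. Neutrophils come from the same bone marrow precursors as monocytes.

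Nuclei had been sorted by their DNA stain, with no gate for cell type, from the cerebellum, the brainstem of 1 hemisphere and the cervical cord of male mice of 8 to 12 weeks. All mice carried loxP-flanked Il12rb2, a chain of the interleukin-12 receptor. The labels gave 4 groups: Il12rb2fl/fl mice with EAE (fl EAE, 4 libraries), NestinCre/+Il12rb2fl/fl mice with EAE (NestinCre EAE, 4 libraries), and the same genotypes without immunization (fl naive, 2 libraries, and NestinCre naive, 1 library). EAE had been induced with the myelin peptide MOG35-55 in complete Freund's adjuvant and pertussis toxin, and tissue was taken at day 10. Nestin-Cre is active in the precursors of neurons, oligodendrocytes and astrocytes, so the monocyte lineage is not the cell type in which the receptor was targeted. Both EAE groups had replicates 1 to 3 sequenced in run 1 and replicate 4 in run 2, with fl naive 2 in the latter, while the remaining naive libraries, fl naive 3 and NestinCre naive 2, made up run 3. The titles of the EAE libraries of run 2 carry no replicate number, and the number 4 was assigned here. The libraries held 13120 to 22951 barcodes and 40761007 to 86063464 UMIs each. Il12rb2 itself lay between 8.18 and 17.2 CPM (UMIs of a gene per 1000000 UMIs) over whole libraries, but the deleted exon is not given in the sources used here and reads of the remaining exons and introns still count, so this level does not check the genotype. The study's methods count animals as its replicates, and p-values measure the spread between these libraries.

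The label was also described with genes that the rule had not used. These genes were listed with earlier results of these data known, so their shares are a description and not an independent test of the label. Among the 216 members of the NestinCre EAE libraries, 189 (87.5%) held UMIs of 3 or more of 32 other genes of monocytes and phagocytes, and per library this share lay between 84.2% and 92.6%. In oligodendrocyte-like nuclei of the same libraries the share was 2.73% (1.87% to 6.71% per library), and in granule-like nuclei it was 2.59% (0.436% to 7.05%). Microglia-like and neutrophil-like nuclei carry many of these genes too, so the shares set members apart from neural nuclei and not from other phagocytes. All 27 fl EAE members held at least 3 of these genes. The label rested less firmly on nuclei that just met the rule. Of the 98 NestinCre EAE members with only 2 rule genes 71 (72.4%) held 3 or more of the other genes, whereas all 118 members with 3 or more rule genes did. Just outside the rule stood 266, 240, 234 and 138 barcodes of NestinCre EAE 1, 2, 3 and 4 that held a single rule gene and met its other limits. A further 138, 41, 57 and 16 barcodes were left out by a UMI of an excluded gene, most often P2ry12 or Csf3r (71 and 94 barcodes in NestinCre EAE 1), so in NestinCre EAE 1 they outnumbered the 76 members.

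The rule genes were also found in nuclei that carried the genes of other cell types. In NestinCre EAE 1, 29 of 3758 granule-like nuclei (0.772%, exact 95% interval 0.517 to 1.11) held 2 or more of the 5 rule genes, and in NestinCre EAE 2, 3 and 4 the share was 0.166%, 0.210% and 0%. The oligodendrocyte-like nuclei were defined by oligodendrocyte markers and the limit on granule cell genes, and could include members. Of 1335 in NestinCre EAE 1, 16 (1.20%) held 2 or more rule genes, 8 of them members, and without members the share was 0.603%. In NestinCre EAE 2, 3 and 4 the shares without members were 0.112%, 0.254% and 0%. In fl EAE 3 the granule-like share was 0.0307% and the oligodendrocyte-like share without members 0.0658%, and in fl EAE 1, 2 and 4 no nucleus of either class held 2. In NestinCre EAE 1, 17 of the 29 granule-like and 12 of the 16 oligodendrocyte-like nuclei also held 2 or more of the 32 other phagocyte genes. Of all granule-like nuclei of that library 28.9% did, and of its oligodendrocyte-like nuclei without members 19.0%. In NestinCre EAE 2 and 3, 6 of 7 and 1 of 7 granule-like nuclei with 2 or more rule genes did. For oligodendrocyte-like nuclei it was 3 of 4 and 5 of 8. Granule-like nuclei were deeper than members, with medians of 2620, 1900, 2080 and 2280 UMIs against 1866, 1374, 1451 and 2031 in NestinCre EAE 1 to 4. The class shares above did not require the absence of the excluded genes, so they are not a like measure to the member shares given below. Outside the members, 231, 78, 88 and 17 barcodes of NestinCre EAE 1 to 4 held 2 or more rule genes. In NestinCre EAE 1 to 3 and fl EAE 3 nuclei of both classes did, so detection of 2 rule genes was not by itself specific to phagocytes there. Oligodendrocyte markers, 2 or more of them, were found in 82 of the 216 members, and neuron markers in 96. The other barcodes of NestinCre EAE 1 to 4 numbered 13365, 17242, 13040 and 22888. Of these, 5326, 7131, 5438 and 13306 held 2 or more oligodendrocyte markers. Neuron markers, 2 or more, were held by 12419, 15664, 11398 and 20014 of them. The part of free RNA and of nuclei captured together in these values was not tested.

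Members had shallow profiles. The NestinCre EAE members held 532 to 11053 UMIs with a median of 1591, and the fl EAE members had a median of 1612. Their sums came to 457423 and 52834 UMIs, so that 3 UMIs corresponded to 6.56 and 56.8 CPM. In the 8 EAE libraries and fl naive 2, no member shared its barcode with a member of another library, and 5 member barcodes occurred in another library at all. Intronic reads were counted, so levels are compared between libraries and cell classes and not between genes.

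Most phagocytes, 216 of 245, came from NestinCre EAE mice. The 4 fl EAE libraries held 3, 1, 16 and 7 members, which corresponded to 0.0191%, 0.00579%, 0.0870% and 0.0385% of their barcodes within the limits. The 4 NestinCre EAE libraries held 76, 57, 68 and 15, or 0.565%, 0.330%, 0.519% and 0.0655%. In naive mice there were 2 members among 20135 barcodes of fl naive 2, none among 16844 of fl naive 3 (exact 95% interval up to 0.0219%), and none among 14825 of NestinCre naive 2 (up to 0.0249%). Replicates 1 to 3 of NestinCre EAE thus stood above all other libraries, whereas fl EAE 3 lay above NestinCre EAE 4, so the groups overlapped. The mean was 0.0376% ± 0.0356 in fl EAE and 0.370% ± 0.227 in NestinCre EAE (SD, n = 4 each), a ratio of 9.83 and a difference of 0.332 percentage points. The ratio was 17.5 without fl EAE 3, and lay between 7.67 and 12.5 without any other single library. By an exact two-sided permutation test over the 70 assignments of libraries this difference had p = 0.0571, where the smallest p that the design allows is 0.0286.

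**Figure D1:**
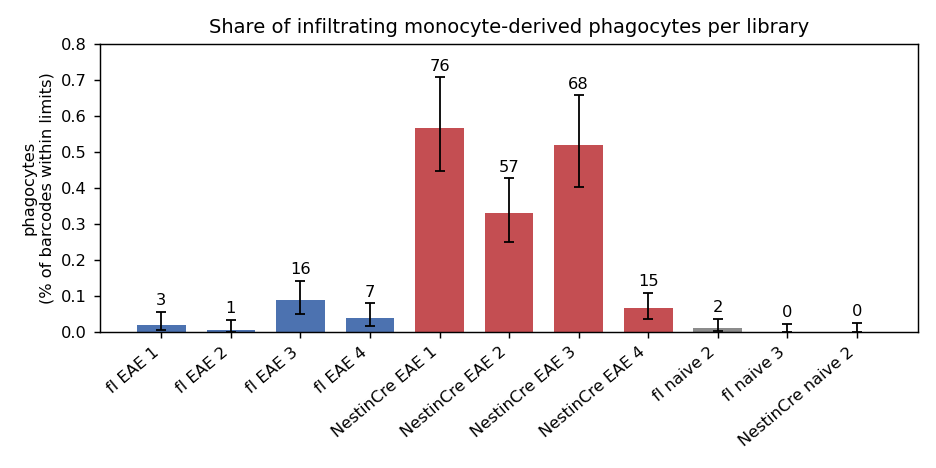
Members as a percentage of the barcodes within the limits (vertical axis) in each of the 11 libraries, with exact 95% intervals for counting error and the number of members above each bar. NestinCre EAE 1 to 3 stand at 0.330% to 0.565%, NestinCre EAE 4 and fl EAE 3 lie close together at 0.0655% and 0.0870%, and 2 of the 3 naive libraries hold no member.

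The size of the difference varied with the run. Within run 1 the means were 0.0373% and 0.471%, and all 3 NestinCre EAE libraries lay above all 3 fl EAE libraries (exact permutation p = 0.1, the smallest that 3 against 3 allows). Run 2 held 1 library of each group, with 0.0385% in fl EAE 4 and 0.0655% in NestinCre EAE 4. This order was reversed without members holding oligodendrocyte markers (0.0275% and 0.0175%) and with barcodes thinned to 1000 UMIs (0.0504% and 0.0461%). Without NestinCre EAE 4 the difference was 0.434 points with an exact permutation p of 0.0286. A count model of the nuclei of all 8 libraries (edgeR) gave a log2 difference of 3.26 with a p of 0.0396 after adjustment over 5 classes, and the adjusted p was 0.0922 with run as a term and 0.14 with the replicate number as a block. A requirement of at least 2 of the 32 other phagocyte genes in each member was chosen after the data had been seen. With it 27 fl EAE and 193 NestinCre EAE members remained, and the means were 0.0376% and 0.331% (exact permutation p = 0.0571). Granule-like nuclei met it too, 2.67% to 5.31% per fl EAE library and 5.97% to 28.9% per NestinCre EAE library. It was thus a weaker screen against neural nuclei in NestinCre EAE. The barcodes with 2 or more rule genes in granule-like and oligodendrocyte-like nuclei were also most frequent in the NestinCre EAE libraries of run 1. Neutrophil-like nuclei numbered 62, 16, 29 and 2 in NestinCre EAE and 4, 2, 5 and 6 in fl EAE, so they were most frequent in the same library as the members. Whether a higher share reflects more cells in the tissue or better recovery of their nuclei cannot be told apart.

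Klra2, a lectin-like receptor of the Ly49 family (GRCm39 chr6:131195757-131224330), and Gpr141, an orphan receptor of myeloid cells (chr13:19933846-20008427), were each detected in most members. Klra2 stood at 1050, 1220, 1140 and 1120 CPM in the members of NestinCre EAE 1 to 4, and Gpr141 at 1040, 1630, 1260 and 829 CPM. Ccr2, the chemokine receptor that draws monocytes out of the marrow (chr9:123901982-123913594), reached 712, 689, 928 and 542 CPM. Ms4a4c, a membrane protein gene in the Ms4a cluster (chr19:11382131-11404610), and Ly6c2, which encodes the surface antigen of classical monocytes (chr15:74980003-74988467), averaged 321 ± 123 and 230 ± 94.2 CPM (SD, n = 4). In fl EAE 3 and fl EAE 4 the same genes were present, with Gpr141 at 1520 and 1550 CPM and Ccr2 at 743 and 1440 CPM. A single nucleus rarely showed all of them: 98, 70, 36 and 12 of the NestinCre EAE members held 2, 3, 4 and 5 rule genes.

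The 20 genes that stood out most against all other barcodes of the same libraries included the rule genes Klra2, Gpr141 and Ccr2, and most of the others are known from myeloid cells. Genes had to reach 100 CPM and 20 UMIs in members of 3 libraries, and the ratios are a description, since the members were chosen by their RNA. Myof, which encodes the membrane repair protein myoferlin, had a ratio of 123, Ms4a8a one of 102, the lipid flippase gene Atp8b4 one of 97.8 and Sirpb1c, of the signal regulatory protein family, one of 92.6. Msr1, the scavenger receptor for modified lipoproteins, had a ratio of 81.2, and Tgfbi, a secreted matrix protein of macrophages, one of 72.7. Aoah, which inactivates bacterial lipopolysaccharide, stood at 71.5, Cybb, the catalytic subunit of the phagocyte NADPH oxidase, at 61.8, and the Src family kinase gene Fgr at 61.5. F13a1, the coagulation factor XIII subunit that monocytes and some macrophages carry, had a ratio of 61.5. The list was closed by Ifi213 at 59.1 and Ifi203 at 58.4, interferon-inducible genes of the Ifi200 cluster on chromosome 1. Sirpb1c, the Ifi200 genes, the Ms4a4 genes, Klra2 and Ly6c2 belong to gene families. How reads were divided between members of these families was not tested.

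**Figure D2:**
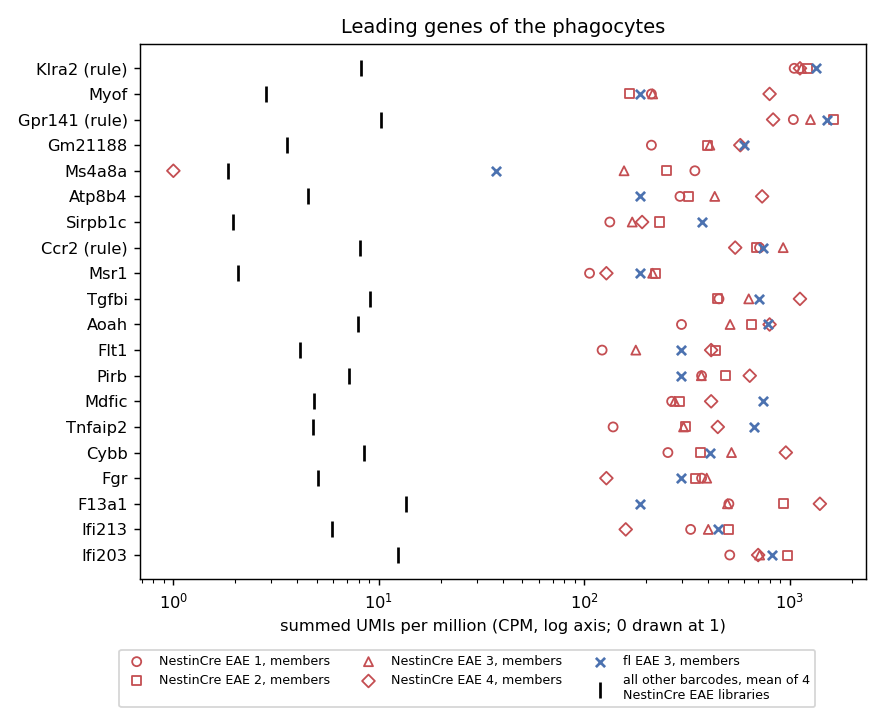
Levels in CPM (log axis, 0 drawn at 1) of the 20 leading genes in members of the 4 NestinCre EAE libraries and of fl EAE 3, with a black tick for the mean of all other barcodes. Points of a gene lie close together for Klra2, whereas Myof of NestinCre EAE 4 stands at 797 CPM against 165 to 215 CPM in the other 3 NestinCre EAE libraries.

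Members were then compared with the 2 most similar classes, each picked by at least 2 of its markers. Microglia-like nuclei held UMIs of 2 or more of P2ry12, Tmem119 and Siglech, and numbered 541 in all libraries. They were also required to hold none of the 5 rule genes and no UMI of Csf3r or Cd3e, so the comparison is with microglia selected to lack Ccr2 and the other rule genes. Neutrophil-like nuclei held Csf3r, fewer than 2 rule genes and no UMI of P2ry12, Tmem119, Siglech or Cd3e, and numbered 128. UMIs were summed per class and library, and edgeR's quasi-likelihood test compared the sums within libraries of at least 10 nuclei of both classes, with Benjamini-Hochberg adjustment and the genes that define either class left out. Against microglia-like nuclei, 3359 genes were tested in 5 libraries (fl EAE 3 and NestinCre EAE 1 to 4). Of these, 529 (15.7%) were higher and 531 (15.8%) lower in the phagocytes at an adjusted p under 0.05, 31.6% in either direction. Against neutrophil-like nuclei, 3226 genes were tested in NestinCre EAE 1 to 3, and 131 (4.06%) were higher and 75 (2.32%) lower, 6.39% in either direction. These calls were less firm. Without nuclei holding oligodendrocyte markers, which left 2 libraries, edgeR called 0 genes in either direction (415 at an unadjusted p under 0.05). On all nuclei of the reported fit, with 3 libraries, DESeq2 called 60 higher and 31 lower. With 3 or more rule genes required, edgeR called 203 higher and 279 lower. A gene near 0 in one class can enter such a test only through the other. The differences of single genes and the counts over lists that follow therefore describe the tested genes and do not support the identity of the members.

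Among the genes with the largest differences from microglia-like nuclei were several of the leading genes. Atp8b4, with no UMI in microglia-like nuclei, was at least 164-fold higher in the phagocytes (fitted log2 difference 9.39 ± 0.589 SE). Myof was at least 109-fold higher (9.33 ± 0.645), Sirpb1c at least 82.7-fold and Ms4a4a at least 64.9-fold. Genes without a UMI in microglia-like nuclei could pass the count filter only through the phagocytes, so these differences are a description. Gm21188, Sirpb1b, Cd38, the lectin receptor gene Clec12a and the Ifi200 gene Mndal followed with log2 differences of 8.32, 7.13, 7.06, 6.82 and 6.52, and Tnfaip2 lay between Cd38 and Clec12a. Among the lower genes were Slco2b1, a transporter of microglia (-4.79), and genes that neurons transcribe, such as Kcnip1 (-5.82), Dpp10 (-3.58) and Lrrtm4 (-3.31). The neuron markers summed to 2320 to 3060 CPM in the microglia-like nuclei and 1510 to 2260 CPM in the members of NestinCre EAE, and the part of neuronal RNA in these calls was not tested. Against neutrophil-like nuclei the phagocytes were higher in Ms4a8a (at least 17.7-fold), Flt1 (at least 14.5-fold), which is also on the list of endothelial markers, Ms4a4a (at least 9.46-fold) and Ptpro (at least 8.67-fold), none of which had a UMI there. They were lower in Il1f9 (-4.15), an interleukin-1 family cytokine gene, Hdc (-3.70), which makes histamine, Steap4 (-3.64) and Cd101 (-3.51).

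Genes of monocyte identity were present in every library with 10 or more members, in changing proportions. Lyz2, the lysozyme of monocytes and macrophages, reached 287, 795, 698 and 478 CPM in NestinCre EAE 1 to 4 and 446 CPM in fl EAE 3. Plac8, which is high in newly arrived monocytes, reached 558, 873, 483 and 95.6 CPM, with 780 CPM in fl EAE 3. F13a1 stood at 505, 931, 497 and 1400 CPM and at 186 CPM in fl EAE 3. In NestinCre EAE 1 to 3 both genes were highest in replicate 2. NestinCre EAE 4 was the lowest of these libraries for Plac8, and its F13a1 level rested on 1 nucleus with 31 of 44 UMIs, without which it was 462 CPM. Vcan, a matrix proteoglycan gene of classical monocytes, stood at 526, 475, 401 and 128 CPM. The 16 genes of the list summed to 3670 to 4620 CPM in NestinCre EAE members, 61.3 to 215 CPM in microglia-like nuclei and 42.6 to 196 CPM in oligodendrocyte-like nuclei of the same libraries.

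Against microglia-like nuclei, 6 of 6 tested identity genes were higher and none lower, with a median log2 difference of 5.06 beside -0.0191 over all genes tested. Lyz2 differed by 5.19 ± 0.464 (SE, adjusted p = 1.59e-05), F13a1 by 5.04 ± 0.721 (adjusted p = 0.000387), Plac8 by 4.89 and Vcan by 4.01. Neutrophil-like nuclei carried some of these genes themselves. There, 7 of 10 tested identity genes were higher in the phagocytes and none lower, with a median of 2.32 beside 0.0193 over all genes, and the examples were Fn1 (3.97), Vcan (3.75), F13a1 (3.74), Lyz2 (2.52) and Chil3 (2.29).

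**Figure D3:**
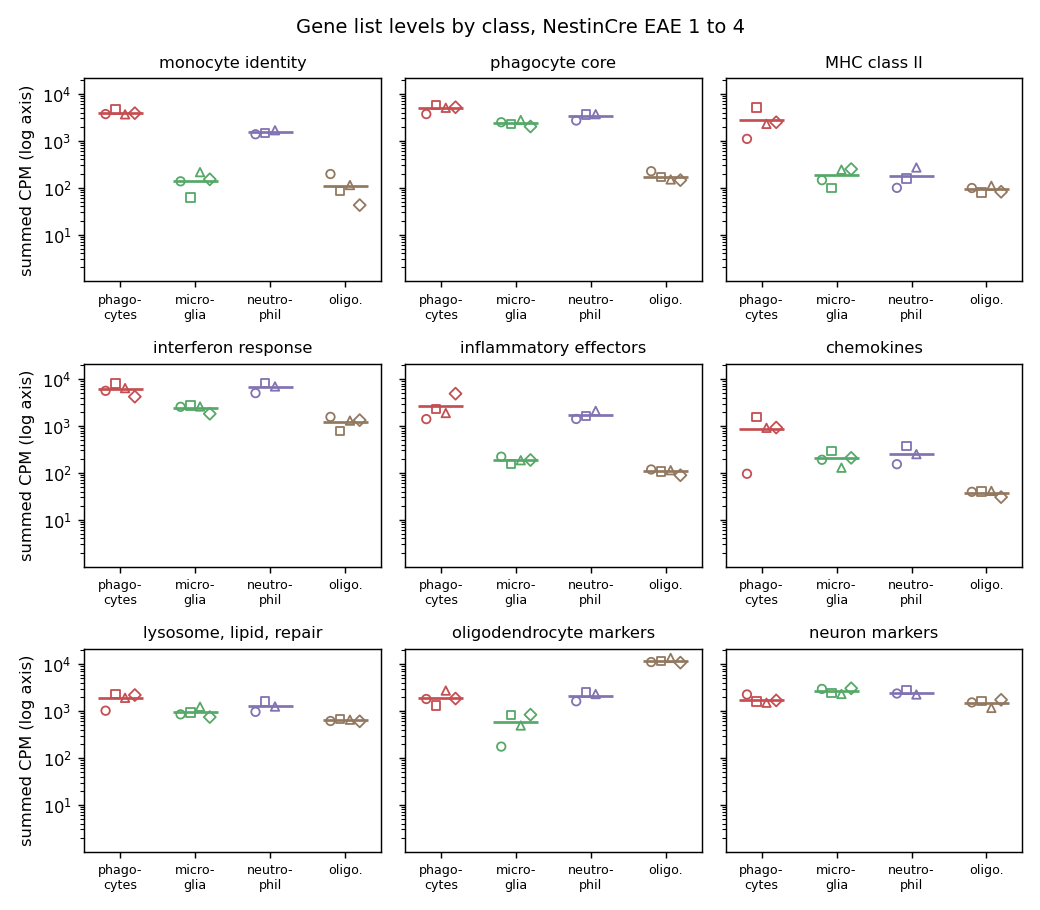
Summed CPM (log axis) of 9 gene lists in phagocytes, microglia-like, neutrophil-like (libraries with at least 10 nuclei) and oligodendrocyte-like nuclei, a point for each NestinCre EAE library and a line at the mean of each class. Monocyte identity separates the phagocytes (3670 to 4620 CPM) from microglia-like nuclei (61.3 to 215 CPM), whereas the interferon response is carried by both (4210 to 7990 and 1820 to 2700 CPM).

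The machinery of phagocytosis was shared with microglia in part. Ptprc, the leukocyte phosphatase CD45, reached 861, 1700, 1570 and 861 CPM in NestinCre EAE 1 to 4 against a mean of 297 CPM in microglia-like nuclei, a log2 difference of 1.86. Cybb stood at 255, 369, 520 and 956 CPM against 40.0 CPM (3.89 ± 0.379), and the lowest phagocyte value lay above the microglial mean. Msr1 (4.42), Tyrobp (2.20), Fcer1g (1.62), the transcription factor gene Spi1 (1.47) and Lyn (0.90) were also higher, so that 7 of 9 tested core genes were higher and 1 lower, with a median of 1.62. The gene that was lower was Mertk, a receptor for apoptotic cells, at 133, 242, 134 and 542 CPM against 623 CPM (-1.60 ± 0.369, adjusted p = 0.00684). Csf1r, the receptor for the macrophage growth factor, stood at 106, 213, 193 and 223 CPM against 194 CPM, and its difference of -0.16 ± 0.255 did not pass the test (adjusted p = 0.68). Complement C1qb, part of the lysosome and repair list, was lower than in microglia-like nuclei (-1.22), as was C1qc (-1.67). Of 10 core genes tested against neutrophil-like nuclei, 1 was higher and none lower, with a median of 0.707.

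Adhesion receptors for entry into tissue were high. Itga4, the integrin that binds VCAM-1 on inflamed vessels, reached 473, 698, 639 and 956 CPM against a microglial mean of 39.4 CPM (4.49 ± 0.464, adjusted p = 3.52e-05). Cd44, the hyaluronan receptor, stood at 276, 320, 364 and 510 CPM against 17.2 CPM (4.89). Every library exceeded the microglial mean by several-fold in both genes. Of 7 tested trafficking genes 4 were higher, also with Itgb2 (2.32) and Itgb1 (1.01), and 2 lower, Cx3cr1 (-2.04 ± 0.410, adjusted p = 0.0033) and Selplg (-0.91), with a median of 1.01. Of 9 trafficking genes tested against neutrophil-like nuclei, 2 were higher and none lower, with a median of 0.353. Itga4 was among the higher ones (2.48).

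MHC class II genes were transcribed in most members of each EAE library with 10 or more of them. Cd74, the invariant chain that guides class II molecules through the cell, reached 382, 2340, 757 and 956 CPM in NestinCre EAE 1 to 4, and 1080 and 722 CPM in fl EAE 3 and fl EAE 4. A single nucleus of NestinCre EAE 2 held 124 of its 241 Cd74 UMIs, and the level without it was 1170 CPM. H2-Ab1, the class II beta chain of these mice, stood at 159, 979, 423 and 383 CPM against 14.6 CPM in microglia-like nuclei, and H2-Aa at 143, 650, 275 and 414 CPM. Of the 101 H2-Ab1 UMIs of NestinCre EAE 2, 63 were in 1 nucleus, and without it the level was 381 CPM, close to NestinCre EAE 3 and 4. Ciita, the regulator that switches class II transcription on, was present at 149, 233, 349 and 319 CPM. At least 1 UMI of the list was found in 145 of the 216 NestinCre EAE members (67.1%), and per library in 56.6%, 73.7%, 69.1% and 86.7%, with 81.2% in fl EAE 3. After every nucleus had been thinned to 500 UMIs, so that depth was equal, the share was 39.5% to 53.3% per NestinCre EAE library and 75.0% in fl EAE 3, against 9.68% to 19.4% of microglia-like and 4.64% to 6.54% of oligodendrocyte-like nuclei.

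All 5 tested class II genes were higher than in microglia-like nuclei, with a median of 4.26. H2-Aa differed by 5.22 ± 0.550 (adjusted p = 4.23e-05), H2-Ab1 by 4.61 ± 0.393 (adjusted p = 1.14e-05), Cd74 by 4.12 ± 0.525 (adjusted p = 0.000171) and Ciita by 3.41 ± 0.400. All 6 tested were higher than in neutrophil-like nuclei, with a median of 3.62 and Cd74 at 4.70 ± 0.513 (adjusted p = 0.000137). MHC class I genes behaved differently between the comparisons. H2-D1, at 425, 815, 468 and 956 CPM against 142 CPM in microglia-like nuclei, H2-Q7 (2.74), H2-K1 (2.68), B2m (1.65) and the peptide transporter gene Tap1 (1.40) were all higher than in microglia-like nuclei, 5 of 5 tested, whereas none of 9 tested was called against neutrophil-like nuclei and their median was 0.387. The members of the H2 family are close copies of each other, and reads could be divided between them. Of the costimulatory genes, Cd274, which encodes the checkpoint ligand PD-L1, was steady at 340, 456, 408 and 446 CPM and higher than in microglia-like nuclei (2.34 ± 0.432, adjusted p = 0.00192). Cd86, the ligand of CD28, was higher than in microglia-like nuclei by 1.11 and than in neutrophil-like nuclei by 2.97.

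Genes of the interferon response were present in all NestinCre EAE libraries at a summed 4210 to 7990 CPM, against 1820 to 2700 CPM in microglia-like and 782 to 1560 CPM in oligodendrocyte-like nuclei. Iigp1, an interferon-gamma-induced GTPase gene, stood at 744, 1040, 646 and 669 CPM in NestinCre EAE 1 to 4, and Gbp5, a guanylate-binding protein gene that acts in inflammasome activation, at 308, 446, 342 and 478 CPM. Gbp2 reached 244, 562 and 260 CPM in the first 3 libraries and had no UMI in NestinCre EAE 4. In fl EAE 3 the 30 genes summed to 10800 CPM and in fl EAE 4, with 7 nuclei, to 2500 CPM, so the fl EAE members spanned a wider range than the NestinCre EAE members. With nuclei thinned to 500 UMIs, a UMI of the list was found in 73.3% to 91.2% of members, 60.3% to 75.0% of microglia-like and 24.0% to 41.7% of oligodendrocyte-like nuclei.

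Against microglia-like nuclei 11 of 15 tested interferon genes were higher and none lower, with a median of 1.39, which were smaller differences than those of the class II list. Irf7 differed by 3.10 ± 0.465 (adjusted p = 0.000508) and Irf1 by 2.89 ± 0.373 (adjusted p = 0.000185). Others were Ifi207 (2.51), Gbp5 (2.27), Gbp2 (2.17), Gbp4 (1.60), Ifi204 (1.39), Iigp1 (1.20), Stat2 (1.08) and Nlrc5 (1.06). Against neutrophil-like nuclei 4 of 20 tested were higher and 1 lower, with a median of 0.181. Mx1, an antiviral GTPase gene, was higher by 4.92 ± 0.760 (adjusted p = 0.00117), and Slfn4 was lower, with a log2 difference of -2.93 (adjusted p = 0.000123).

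Promoters of these genes were searched for the core of the interferon-stimulated response element, the sequence that interferon-activated factors bind. The genes were picked as interferon or leading genes with their differences known, so the shares describe these promoters and test nothing. A pair of GAAA repeats with any 2 bases between them, on either strand of the 250 bases before a start site, was found in 4 of 7 RefSeq promoters (57.1%) of the interferon genes that were higher than in microglia-like nuclei, of which 6 of 11 genes were matched, and in 4 of 21 promoters (19.0%) of the 20 leading genes, of which 19 were matched. Over all 32851 RefSeq promoters of GRCm38.p6 the share was 2.98%. A match is a description of letters and not of a bound site. The other leading promoters with a match were those of Tgfbi, with 1, and Cybb, with 3. The sequences below show the matches of the interferon genes and of the Ifi200 genes among the leading ones, in capitals within 25 flanking bases and in the direction of the gene. The Ifi207 window lies at chr1:173741816-173741875 on the minus strand, Gbp5 at chr3:142496744-142496803 on the plus strand, Gbp2 at chr3:142620579-142620638 on the plus strand, Stat2 at chr10:128270251-128270310 on the plus strand, and the leading genes Ifi213 and Ifi203 at chr1:173599311-173599370 and chr1:173942493-173942552 on the minus strand. In Gbp5, Gbp2 and Stat2 the match is on the opposite strand and is printed as the reverse complement.
Ifi207: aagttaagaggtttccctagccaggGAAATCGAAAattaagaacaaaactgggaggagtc
Ifi213: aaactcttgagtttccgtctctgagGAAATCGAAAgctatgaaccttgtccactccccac
Ifi203: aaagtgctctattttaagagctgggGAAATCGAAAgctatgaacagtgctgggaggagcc
Gbp5: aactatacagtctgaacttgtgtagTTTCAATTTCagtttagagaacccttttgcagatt
Gbp2: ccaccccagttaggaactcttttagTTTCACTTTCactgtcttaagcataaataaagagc
Stat2: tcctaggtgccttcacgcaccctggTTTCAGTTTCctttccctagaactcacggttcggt

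The letters of the match were the same in the promoters of Ifi207, Ifi213 and Ifi203, which belong to a single gene family on chromosome 1. A site of the ETS factor PU.1, which Spi1 encodes, was searched as GAGGAAGT. It was found in none of the 7 interferon promoters and in 2 of 21 leading promoters (9.52%), those of Atp8b4 and Pirb, against 2.44% of all promoters.

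Genes of inflammatory effectors followed the same pattern against microglia-like nuclei. Aoah reached 297, 650, 512 and 797 CPM against 8.02 CPM in microglia-like nuclei (5.93 ± 0.448, adjusted p = 7.61e-06). Xdh, whose enzyme makes uric acid and superoxide, stood at 329, 485, 379 and 287 CPM (4.77 ± 0.547, adjusted p = 9e-05). Hif1a, the regulator of the response to low oxygen, stood at 329, 310, 267 and 351 CPM (2.31), and these were the 3 effector genes that could be tested, all higher, with a median of 4.77. Acod1, which makes itaconate, was present at 42.5, 204, 223 and 319 CPM. The effector list summed to 1400 to 4880 CPM in NestinCre EAE members and 153 to 221 CPM in microglia-like nuclei. Against neutrophil-like nuclei 6 effector genes were tested, of which Aoah (3.22) and Hif1a (1.49) were higher and Hdc (-3.70) and Il1b (-2.04 ± 0.339, adjusted p = 0.00185) lower, with a median of 0.0739.

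Chemokine genes were detected in 13.2%, 35.1%, 47.1% and 53.3% of the members of NestinCre EAE 1 to 4, and in some libraries single nuclei set their level. Cxcl10, a ligand of the T cell receptor Cxcr3, stood at 42.5, 601, 609 and 542 CPM in NestinCre EAE 1 to 4, at 1340 CPM in fl EAE 3 and at 0 in fl EAE 4. In NestinCre EAE 2 and 3 it was found in 12 and 18 nuclei and stood at 492 and 481 CPM without the highest. In NestinCre EAE 4 it was held by 3 nuclei, and without the highest of them its level was 132 CPM. In fl EAE 3 the highest of 5 nuclei held 27 of 36 UMIs, and the level without it was 366 CPM. Ccl5 stood at 592 CPM in NestinCre EAE 2, where a single nucleus held 55 of 61 UMIs, and at 60.2 CPM without that nucleus. Cxcl9, another ligand of Cxcr3, reached 21.2, 204, 104 and 95.6 CPM. Ccl3, Ccl8 and Ccl22 had no UMI in the 216 NestinCre EAE members. The list summed to 95.6 to 1570 CPM in members and 129 to 291 CPM in microglia-like nuclei, so these ranges overlapped.

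Of the interleukin-12 family, the genes of interleukin-12 and interleukin-23 were at or near the limit of detection, whereas Il27 was detected in each NestinCre EAE library. Il12b, the shared subunit of interleukin-12 and interleukin-23, and Il23a had no UMI in 457423 UMIs of NestinCre EAE members, which allows a level of up to 6.56 CPM. Il12a had 4 UMIs and Il12rb1 6 UMIs. Il12rb2 averaged 34.8 CPM over the NestinCre EAE libraries. Il27 stood at 47.8, 77.6, 37.1 and 128 CPM, from 8, 7, 4 and 3 nuclei, and Il15, which sustains T and NK cells, at 69.1, 116, 89.1 and 31.9 CPM. Il18 averaged 65.9 CPM in members and 104 CPM in oligodendrocyte-like nuclei, so its presence here is not above that background.

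Genes of lysosomes, lipid handling and repair summed to 1020 to 2300 CPM in members (median 2060 CPM) and 746 to 1240 CPM in microglia-like nuclei (median 889 CPM), so the ranges overlapped. Of 8 tested 2 were higher, Lgals3 (5.01) and Apoe (2.25), which encode galectin-3 and the lipid carrier apolipoprotein E, and 2 were lower, C1qb and C1qc, with a median of 0.311. Apoe reached 356, 1260, 653 and 351 CPM in NestinCre EAE 1 to 4. In NestinCre EAE 1 to 3 members, 2 of 7 tested genes of the list were higher than in neutrophil-like nuclei and none lower, with a median of -0.362.

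**Figure D4:**
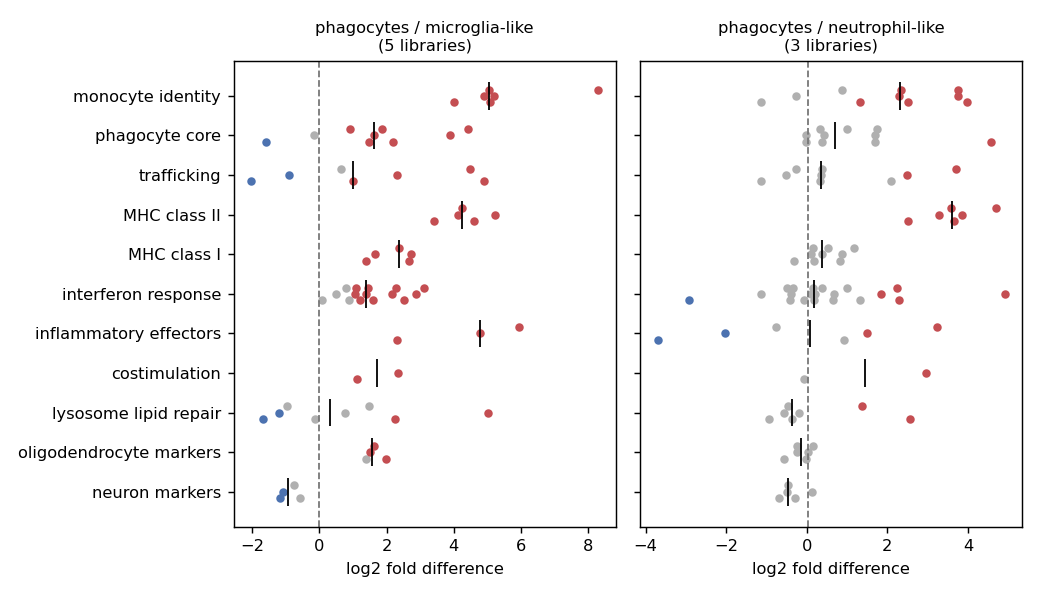
Log2 differences of phagocytes from microglia-like nuclei (5 libraries) and from neutrophil-like nuclei (3 libraries), each point a tested gene of a list, red where higher, blue where lower and grey where the test did not call it; the black tick is the median of the list and the dashed line the median of all genes. Class II genes lie to the right in both panels (medians 4.26 and 3.62), whereas interferon genes lie to the right against microglia-like nuclei (1.39) and near 0 against neutrophil-like nuclei (0.181).

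Markers of other cell types gave a measure of what else the members held. The microglia markers, of which P2ry12, Tmem119 and Siglech are 0 by the rule, summed to 128 to 215 CPM in NestinCre EAE members, 148 to 164 CPM in oligodendrocyte-like and 1170 to 1900 CPM in microglia-like nuclei, and Slc2a5 and Olfml3 had no UMI in members. Neutrophil markers summed to 127, 48.5, 193 and 0 CPM in NestinCre EAE 1 to 4, with Csf3r at 0 by the rule. Markers of T and NK cells summed to 5.31 to 414 CPM, with 6 of 10 at 0, among them Cd3d, Cd3g, Cd2, Ncr1 and Klrb1c. Endothelial markers summed to 228 to 1060 CPM in members, 7.66 to 358 CPM in microglia-like and 12.4 to 19.7 CPM in oligodendrocyte-like nuclei. Flt1 was the only one of them tested and was higher than in microglia-like nuclei (6.39), with 122, 436, 178 and 414 CPM in the members of NestinCre EAE 1 to 4 from 23, 45, 24 and 13 UMIs. Markers of dendritic cells summed to 218 to 359 CPM in members. In microglia-like, neutrophil-like and granule-like nuclei they summed to 76.6 to 152, 77.1 to 190 and 154 to 183 CPM. Xcr1, Cd209a and Ccr7 were at 0, and the other 6 of the 9 markers held UMIs. At least 1 marker was found in 52 of the 216 NestinCre EAE members (24.1%), and 2 or more in 14. The part of dendritic cells among the members was not tested. Markers of border-associated macrophages, which the rule does not exclude, summed to 63.7 to 765 CPM in members and 45.6 to 76.3 CPM in microglia-like nuclei. Cd163, Lyve1 and Cd209f were at 0. At least 1 marker was found in 30 of the 216 NestinCre EAE members (13.9%), 6 of 15 in NestinCre EAE 4, and in 7 of 27 fl EAE members. The part of these macrophages among the members was not tested. Proliferation genes summed to 22.3 to 85.0 CPM. The B cell list summed to 31.9 to 452 CPM with Cd79a and Cd79b at 0. Oligodendrocyte markers, however, summed to 1330 to 2740 CPM in members and 175 to 838 CPM in microglia-like nuclei. They summed to 760 to 2480 CPM in neutrophil-like and 10800 to 13600 CPM in oligodendrocyte-like nuclei. Of 6 oligodendrocyte markers tested against neutrophil-like nuclei, none was called. The myelin genes Mobp (1.97) and Mbp were higher than in microglia-like nuclei. The source of these transcripts in the members was not tested. Without members and microglia-like nuclei that held 2 or more oligodendrocyte markers, 269 genes were higher and 193 lower than in microglia-like nuclei.

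Levels of some genes varied widely between libraries. The examples here were chosen after their values had been seen, so they are a description with no test, and several rest on few nuclei. Chil3, a chitinase-like protein gene of young Ly6C-high monocytes, stood at 659 CPM in NestinCre EAE 1 and at 165, 186 and 31.9 CPM in replicates 2, 3 and 4. It was found in 34 of 76 nuclei (44.7%) of NestinCre EAE 1 and in 14.0%, 16.2% and 6.67% of nuclei in the others, so the difference did not come from a few nuclei. Neutrophil markers other than Csf3r were found in 22.4% of members of NestinCre EAE 1 and in 7.02%, 13.2% and 0% in the others, and their part in the Chil3 level was not tested. Cxcl10 showed the reverse and was found in 4 of these 76 nuclei. Nos2, which makes nitric oxide, stood at 26.6, 29.1 and 22.3 CPM in replicates 1 to 3 and at 1500 CPM in NestinCre EAE 4. These came from 47 UMIs in 3 nuclei, and the level without the highest was 956 CPM. Arg1, which competes with Nos2 for arginine, stood at 669 CPM in the same library and at 35.5 CPM without 1 nucleus, which held 20 of 21 UMIs. Fn1, the fibronectin gene, was at 292, 194, 200 and 1050 CPM, and at 639 CPM without the highest of 5 nuclei in NestinCre EAE 4.

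Part of this variation rested on single nuclei. In NestinCre EAE 2 the endothelial genes Cldn5, Mecom and Ly6c1 stood at 136, 155 and 175 CPM. Without the highest nucleus, taken for each gene separately, they stood at 0, 0 and 10.2 CPM. Most UMIs of each gene thus came from 1 nucleus. In NestinCre EAE 4 the macrophage receptor gene Mrc1 came from 1 nucleus (319 CPM), whereas Stab1 was spread over 6 nuclei and kept 335 of 383 CPM without the highest. The Nos2 level of fl EAE 3, 483 CPM, came from 13 UMIs in a single nucleus. NestinCre EAE 4 was sequenced in run 2 and held 15 members, and its run, its number of members and its levels cannot be told apart.

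**Figure D5:**
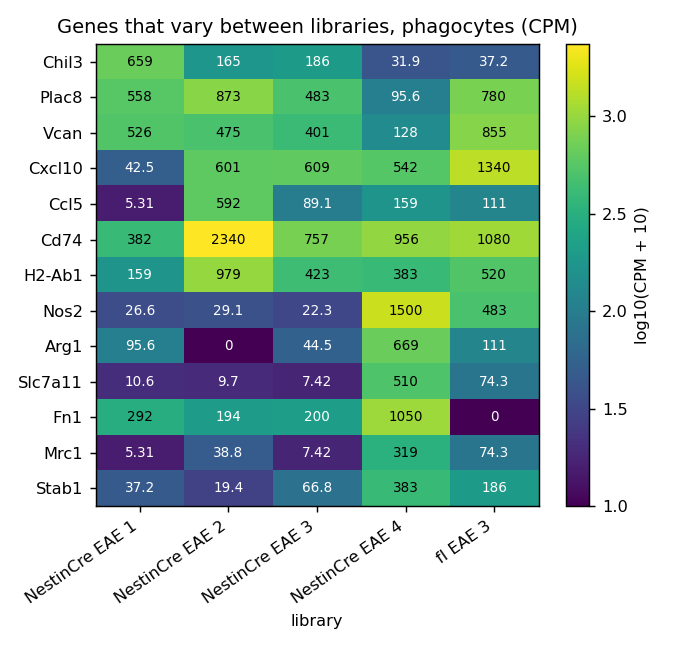
Levels in CPM, printed in each cell and coloured on a log10(CPM + 10) scale, of 13 genes in the members of NestinCre EAE 1 to 4 and fl EAE 3; the genes were chosen after their values had been seen. Chil3 is highest in NestinCre EAE 1 (659 CPM), the class II genes Cd74 and H2-Ab1 in NestinCre EAE 2 (2340 and 979 CPM, but 1170 and 381 CPM without their highest nucleus), and Nos2, Arg1, Fn1 and Stab1 in NestinCre EAE 4, where Arg1 falls to 35.5 CPM without 1 nucleus.

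Genes of several programmes were detected in the same nuclei. Among the 216 NestinCre EAE members, 130 (60.2%) held Chil3 or Plac8, 118 (54.6%) held Nos2, Il1b, Acod1 or Xdh, 102 (47.2%) held F13a1 or Vcan, and 34 (15.7%) held a C1q gene. Of the 145 with a class II UMI, 62.8% also held Nos2, Il1b, Acod1 or Xdh, against 38.0% of the others. Chil3 or Plac8 was found in 63.4% and 53.5% of these nuclei, and F13a1 or Vcan in 42.8% and 56.3%. The median depth was 1630 UMIs with and 1560 without class II UMIs. These shares pool 4 libraries that differed in each programme, with Chil3 or Plac8 in 73.7%, 54.4%, 57.4% and 26.7% of the members of NestinCre EAE 1 to 4, and differences between libraries and between nuclei cannot be told apart in them. No test was made, because nuclei of a library are not replicates.

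Whether the phagocytes of NestinCre EAE mice differed from those of fl EAE mice could be asked of few nuclei. With libraries of at least 5 members, 239 nuclei from fl EAE 3 and 4 and NestinCre EAE 1 to 4 entered the fit, and 35 of 2278 genes (1.54%) were called, 30 higher (1.32%) and 5 lower (0.219%) in NestinCre EAE. No tested gene of the monocyte, phagocyte, antigen presentation, interferon or effector lists was among them. The monocyte and phagocyte lists had 9 and 10 tested genes, MHC class II and class I 5 and 7, interferon and effectors 16 and 7. With 1.54% of all genes called, 0 calls among so few genes is near that share. The median log2 difference was -0.36 for the interferon, -0.359 for the effector and -0.23 for the phagocyte list. It was 0.732 for the monocyte list, 0.291 for MHC class I and 0.0445 for MHC class II, beside 0.0469 over all genes. The higher genes included Csmd3 (8.08), Dmd (7.31), Mdga2 (4.79) and Rora (4.61), which are transcribed from long genes in neurons. Neuron markers summed to 892 and 666 CPM in members of fl EAE 3 and 4 and to 1510 to 2260 CPM in NestinCre EAE, with 0 of 4 tested markers called and a median of 1.48 beside 0.0469 over all genes. The lower genes were Btla (-4.18), an inhibitory receptor gene of lymphocytes and dendritic cells, Wdfy4 (-2.93), which acts in cross-presentation, Trerf1 (-2.24), Baz1a (-2.07) and Parp8 (-1.84). Flt3, a growth factor receptor of dendritic cell precursors, stood at 260 and 611 CPM in fl EAE 3 and 4 and at 63.7, 58.2, 81.7 and 0 CPM in NestinCre EAE, from 4 and 2 nuclei in the fl EAE libraries. These calls were not stable: with doublets or nuclei with oligodendrocyte markers left out no gene was called in either direction, although 244 and 225 genes had an unadjusted p under 0.05.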

How the data were processed

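The deposited matrices hold counts of UMIs per gene and barcode without normalization, made by the authors with Cell Ranger (7.0.0 for run 1 and 6.0.2 for runs 2 and 3, per the file headers), with alignment to GRCm39 under a GENCODE annotation and intronic reads counted. Members and lists were chosen with earlier results of these data known. Limits of 200 genes (run 1) or 500 genes (run 2) and 5% mitochondrial UMIs followed the study. The naive libraries of run 3, which the paper left out, were given the limit of 500 genes too. A limit of 6000 total UMIs, which the paper also names, was an alternative here and not applied to the reported values. No doublets were removed in the reported values. Scrublet (scanpy 1.11.5), which marks the highest 0.8% per 1000 barcodes of each library, was an alternative. Counting was done in Python 3.11.15 with scipy 1.17.1.

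UMIs were summed per class and library, since nuclei are not replicates, and the sums were tested by quasi-likelihood (edgeR 4.0.16 under R 4.3.3, TMM factors, low counts removed with filterByExpr, two-sided, library as a block for classes, run as a term for genotype), checked on simulated data. CPM were computed from the summed counts. Intervals are exact binomial (95%) and cover counting error only, and a count of 0 allows up to 3 UMIs. Shares were compared by exact two-sided permutation. For microglia-like nuclei, the rule written at first took mainly deep neuronal nuclei, and it was replaced before any fit, after the depth and marker levels of 2 candidates had been seen. The genotype fit was planned with at least 10 nuclei per library and with no test where a group kept a single library. That limit left a single fl EAE library, so the alternative minimum of 5 is reported in its place. Named genes are those of the rule and of the lists (by level or size of a called difference), the 20 leading genes, and up to 10 called genes per direction with the largest differences and at least 100 CPM. Promoters are RefSeq entries of GRCm38.p6, and gene positions come from GENCODE on GRCm39. Alternatives varied the rule, depth, doublets, filter, normalization, tool, block, run and libraries. Values of some genes are not reported here.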

Additional observations from a re-analysis of the deposited data

Results flagged for a closer look

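Values of 44 groups of 4 EAE libraries were examined for a library far from the others. All groups were of NestinCre EAE except the member shares of fl EAE. Such a library was found in 4 groups, where chance gives about 1 in 20 groups. In all 4 it was NestinCre EAE 4, the library with 15 members. The summed level of the markers of border-associated macrophages was 765 CPM there and 63.7 to 96.5 CPM in the other libraries. Myof stood at 797 CPM (165 to 215 CPM in the others) and at 549 CPM without the highest of its 7 nuclei. Mdfic stood at 414 CPM (266 to 291 CPM) and at 320 CPM without the highest of 6 nuclei. Fgr was lower, at 128 CPM against 349 to 394 CPM, and came from 2 nuclei.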

How the results depend on the processing

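The difference in shares kept its direction in all settings tried. Its exact permutation p was 0.0857 with thinned barcodes and without members holding oligodendrocyte markers, and without single libraries the difference was 0.267 to 0.434 points (p 0.0286 to 0.0857). edgeR on nucleus counts gave log2 differences of 3.26 (p = 0.00791), 3.31 with a replicate block (p = 0.0279) and 2.98 with run as a term (p = 0.0184), and adjusted over 5 classes these p-values are 0.0396, 0.14 and 0.0922. Whether replicate numbers pair the libraries was not settled. Deviations of same-numbered libraries of run 1 correlated at 0.0834, 0.315 and 0.472, in each case the highest value of the fl EAE library. The other pairs lay between -0.527 and 0.161, and NestinCre EAE 1 correlated best with fl EAE 2 (0.161). With the replicate block the genotype comparison within members called 0 genes higher and 0 lower (219 at an unadjusted p under 0.05). Against microglia-like nuclei, counts of higher and lower genes were 269 and 193 without nuclei holding oligodendrocyte markers, 241 and 215 with at most 6000 UMIs, 1460 and 3939 with the microglia rule as first written, and 875 lower without a filter. Without single libraries they were 392 to 492 and 363 to 452. Under the first rule Mertk (1.25), C1qb (1.34), C1qc (1.23), Selplg (2.30) and Cx3cr1 (0.33) changed sign, and those nuclei were mainly neuronal. Against neutrophil-like nuclei, counts were 60 and 31 with DESeq2, 203 higher without a filter, 203 and 279 with 3 rule genes, 53 and 21 with a minimum of 5 nuclei, and 0 and 0 without oligodendrocyte markers (2 libraries, 415 at p under 0.05). Without single libraries they were 108 to 132 and 49 to 94, the 49 without NestinCre EAE 1. The genotype comparison called 131 genes higher without a filter, 0 and 1 with 3 rule genes or at most 6000 UMIs, 0 and 2 in run 1, 0 and 0 without Scrublet doublets (244 at p under 0.05) or oligodendrocyte markers (225), and 0 to 35 and 0 to 3 without single libraries. Parp8 turned to 0.0953 without oligodendrocyte markers. Of the other values for named genes under these settings, 1110 kept their call and 77 lost it against microglia-like nuclei, 362 and 62 against neutrophil-like nuclei, and 58 and 157 between genotypes. Of the summed levels of lists, 32 moved by less than the spread between libraries and 8 by more. The causes were not tested. NestinCre EAE members held a median of 1591 UMIs, which limits genes of low level.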
